A study of Mus musculus with 18 samples.

Results

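Transcripts of 8 genes that adipocytes express, most of them coding for hormones that fat releases into the blood, were followed in white fat, brown fat and skeletal muscle from mice that received quercetin or vehicle alone. The genes were taken by name, as Adipoq, Lep, Retn, Cfd, Rbp4, Nnat, Sncg and Lgals12, and all 8 were found among the 53465 genes counted. Wild-type C57BL/6J mice received quercetin, a plant flavonol, at 0.125 mg/kg by oral gavage in 100 µL of PBS with 10% PEG400, and the control groups received 10% PEG400 in PBS. There were 3 libraries of each treatment in each tissue, 18 in all. Which fat depot and which muscle were taken is not stated in the labels, and neither are age, sex or duration of treatment for the animals sequenced; males of the lifespan experiment began treatment at 14 months.

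Adipokines are proteins by which fat tissue signals to other organs. Leptin reports the size of the fat store to the hypothalamus and lowers food intake, and its mRNA is known to be higher in large white adipocytes than in brown ones. Adiponectin circulates as multimers, raises fatty acid oxidation in muscle and liver through the receptors AdipoR1 and AdipoR2, and is made by white and brown adipocytes alike. Lep (ENSMUSG00000059201, chr6:29060220-29073877) codes for leptin and Adipoq (ENSMUSG00000022878, chr16:23146536-23158028) for adiponectin. Retn (ENSMUSG00000012705, chr8:3655770-3660110) codes for resistin, which adipocytes make in mice. Cfd (ENSMUSG00000061780, chr10:79890853-79892655) codes for adipsin, the complement factor D protease of the alternative pathway. Rbp4 (ENSMUSG00000024990, chr19:38116629-38125281) codes for the retinol carrier of the blood. The others act inside the cell: Nnat (ENSMUSG00000067786, chr2:157560078-157562522) codes for neuronatin, a small endoplasmic reticulum protein of an imprinted gene, Sncg (ENSMUSG00000023064, chr14:34370274-34374789) for gamma-synuclein, and Lgals12 (ENSMUSG00000024972, chr19:7596660-7607193) for galectin-12, a protein of the lipid droplet surface. All positions are on GRCm38.

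The 250 bases before the start of transcription are shown for 4 of these genes, chosen to set leptin beside adiponectin and to add a gene that followed each of them in fat (Cfd and Rbp4). RefSeq promoters (GRCm38.p6) were at hand for 7 of the 8 genes. Capitals mark matches on either strand to TTGCGCAA, a palindrome that C/EBP factors bind, to CCAAT, and to TATAA, whose matches on the 2 strands can overlap; AGGTCA was also searched.
Lep, chr6:29059971-29060220, plus strand: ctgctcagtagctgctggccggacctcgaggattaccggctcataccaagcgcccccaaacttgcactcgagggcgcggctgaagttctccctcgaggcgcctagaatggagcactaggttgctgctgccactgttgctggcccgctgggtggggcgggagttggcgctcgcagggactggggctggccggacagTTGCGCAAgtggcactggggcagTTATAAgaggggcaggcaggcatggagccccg
Cfd, chr10:79890603-79890852, plus strand: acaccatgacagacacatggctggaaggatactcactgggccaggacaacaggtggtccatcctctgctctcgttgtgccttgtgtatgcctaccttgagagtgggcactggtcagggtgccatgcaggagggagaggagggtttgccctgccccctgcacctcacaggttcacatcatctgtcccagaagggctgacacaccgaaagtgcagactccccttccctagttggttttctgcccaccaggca
Adipoq, chr16:23146286-23146535, plus strand: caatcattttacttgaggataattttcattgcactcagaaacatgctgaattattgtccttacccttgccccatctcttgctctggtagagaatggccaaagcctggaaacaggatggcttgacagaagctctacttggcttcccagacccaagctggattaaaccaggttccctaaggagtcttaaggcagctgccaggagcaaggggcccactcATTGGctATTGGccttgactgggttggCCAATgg
Rbp4, chr19:38124812-38125061, minus strand: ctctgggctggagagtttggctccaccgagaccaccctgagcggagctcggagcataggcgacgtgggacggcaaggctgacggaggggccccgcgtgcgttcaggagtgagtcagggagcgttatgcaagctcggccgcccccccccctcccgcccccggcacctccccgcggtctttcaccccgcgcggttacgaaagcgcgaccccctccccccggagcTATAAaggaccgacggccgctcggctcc
TTGCGCAA occurred in the Lep window, 55 bases before the start, and in no other of the 8 windows of these genes, while 0.164% of 32851 RefSeq windows of the same length held it. CCAAT occurred 3 times before Adipoq and once in the window of another Rbp4 start, against 33.8% of all windows with at least 1 match. TATAA stood before Lep and before the Rbp4 start shown, against 22.8% of all windows. AGGTCA was in none of the 8 windows and in 14.0% of all.

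Counts summed over genes ran from 8436308 to 12311345 per library. Levels are given as CPM, counts scaled by library size with TMM factors over the 18 libraries. Ucp1, the uncoupling protein of brown adipocytes, set brown fat apart from white fat. It was at 3735 to 4745 CPM in 5 brown fat libraries and at 894 in the other, brown fat quercetin 3, and at 0 to 18 in white fat. Of the 18, 4 libraries, 2 of muscle and 1 of each fat, stood apart by transcripts of another tissue or by few of their own. Brown fat quercetin 3 had a summed level of 10 skeletal muscle markers of 33591 CPM, against 6.48 to 6390 in the other brown fat libraries, and the 8 brown adipocyte markers at 1764 CPM against 7903 to 9781. White fat vehicle 2 had the 12 adipocyte markers at 708 CPM, against 5339 to 48929 in the other white fat libraries, and the 10 B and T cell markers at 5666 CPM against 40.6 to 4590. Its adipocyte marker sum was also below that of every muscle library, 1434 to 8301 CPM. In muscle vehicle 3 the adipocyte markers summed to 8301 CPM and Plin1, the perilipin of the adipocyte lipid droplet, was at 318 CPM. Muscle quercetin 2 had Plin1 at 147 CPM, Ucp1 at 280 CPM, and markers of male accessory glands and epididymis at 27983 CPM; in the 4 remaining muscle libraries Plin1 was at 2.29 to 24.8 CPM. Other libraries were not uniform either. B and T cell markers were at 4590 CPM in white fat quercetin 1, 2706 in vehicle 3 and 1741 in quercetin 3, against 40.6 in vehicle 1 and 191 in quercetin 2. Brown fat vehicle 1 had muscle markers at 6390 CPM. Transcripts of other cell types were thus not confined to the 4. White fat vehicle 1 had the highest adipocyte sum of the white fat libraries, 48929 CPM against at most 19729, endothelial markers at 3731 CPM against at most 1113, and red blood cell markers at 811 CPM against at most 111, and muscle vehicle 1 had adipocyte markers at 6341 CPM with Plin1 at 4.77 CPM. The part of other tissues in the results below was not tested. Tests of the 8 genes between tissues are given with and without the 4 libraries named first. That choice rests on adipocyte transcripts in 3 of the 4, so the values without them are a description and give no independent support.

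**Figure D1:**
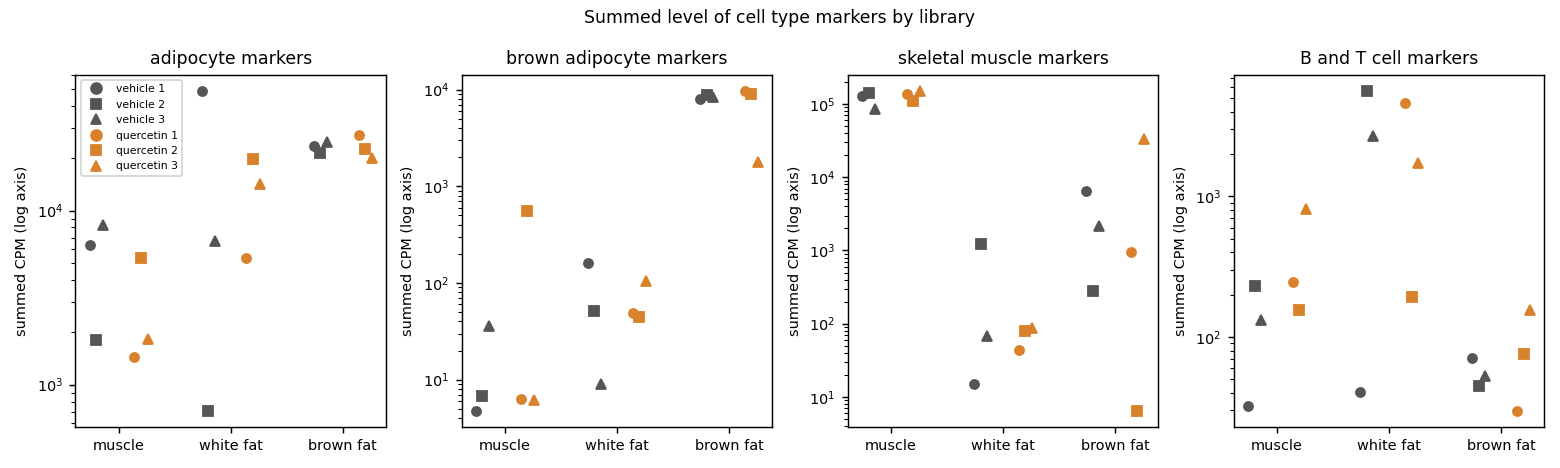
Summed CPM (log axis) of 4 lists of cell type markers in each library, by tissue, with grey for vehicle and orange for quercetin and a symbol for each replicate number. Brown fat quercetin 3 lies at 1764 CPM for brown adipocyte markers and 33591 CPM for muscle markers, and white fat vehicle 2 lies at 708 CPM for adipocyte markers.

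Adiponectin mRNA was abundant in both fat tissues. In brown fat it stood at 531, 753 and 1032 CPM with vehicle and at 1008, 897 and 1000.4 CPM with quercetin. In white fat it stood at 997, 17.9 and 432 CPM with vehicle and at 325, 1099.5 and 830.2 CPM with quercetin. The brown fat libraries lay close together, and the white fat libraries overlapped them on both sides, with the lowest value in vehicle 2. In muscle the values were 3.49, 4.57 and 471 CPM with vehicle and 40.9, 187 and 18.1 CPM with quercetin, so that muscle vehicle 3 was as high as some fat libraries and the rest lay below every fat library except white fat vehicle 2. The group means ran, from the highest, brown fat quercetin 968 ± 61.8 CPM (SD, n = 3), brown fat vehicle 772 ± 251, white fat quercetin 752 ± 393, white fat vehicle 483 ± 492, muscle vehicle 159.7 ± 269.7 and muscle quercetin 81.8 ± 91.4. Each neighbouring pair in this order differed by less than the larger of its 2 SDs.

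Leptin mRNA had another order. In white fat it was at 241, 1.17 and 128 CPM with vehicle and at 39.2, 577 and 136 CPM with quercetin. In brown fat it was at 40.7, 10.4 and 41.6 CPM with vehicle and at 43.3, 27.8 and 275 CPM with quercetin. White fat quercetin 2 was above all brown fat libraries. White fat vehicle 1 and 3 and quercetin 3 were above all brown fat libraries but quercetin 3, which is the one with the most muscle transcripts. White fat vehicle 2 was below all brown fat libraries. In muscle leptin stood at 0.466, 0.12 and 71.4 CPM with vehicle and at 6.48, 21.7 and 1.81 CPM with quercetin, and the 2 highest libraries were again vehicle 3 and quercetin 2. The value of vehicle 2 in muscle rested on 1 read. The group means ran from white fat quercetin, 251 ± 287 CPM (SD, n = 3), through white fat vehicle, 123 ± 119.9, brown fat quercetin, 115 ± 139, brown fat vehicle, 30.9 ± 17.7, and muscle vehicle, 24.0 ± 41.0, to muscle quercetin, 9.99 ± 10.4. No neighbours in this order differed beyond the larger SD.

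Adipsin was the most abundant of the 8 per length of transcript. Per kilobase of exon, Cfd had a median of 4130 CPM in white fat and 1674 CPM in brown fat (n = 6 libraries each), and Adipoq 457 and 687 CPM. The median per kilobase was 198 and 56.6 CPM for Retn, 69.0 and 106 CPM for Rbp4, 94.5 and 38.6 CPM for Sncg, 35.7 and 11.9 CPM for Nnat, 39.4 and 12.3 CPM for Lep, and 12.9 and 37.5 CPM for Lgals12, in white and brown fat in turn. On this scale Cfd was first in both tissues, and the last place went to Lgals12 in white fat and to Nnat in brown fat, next to Lep.

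**Figure D2:**
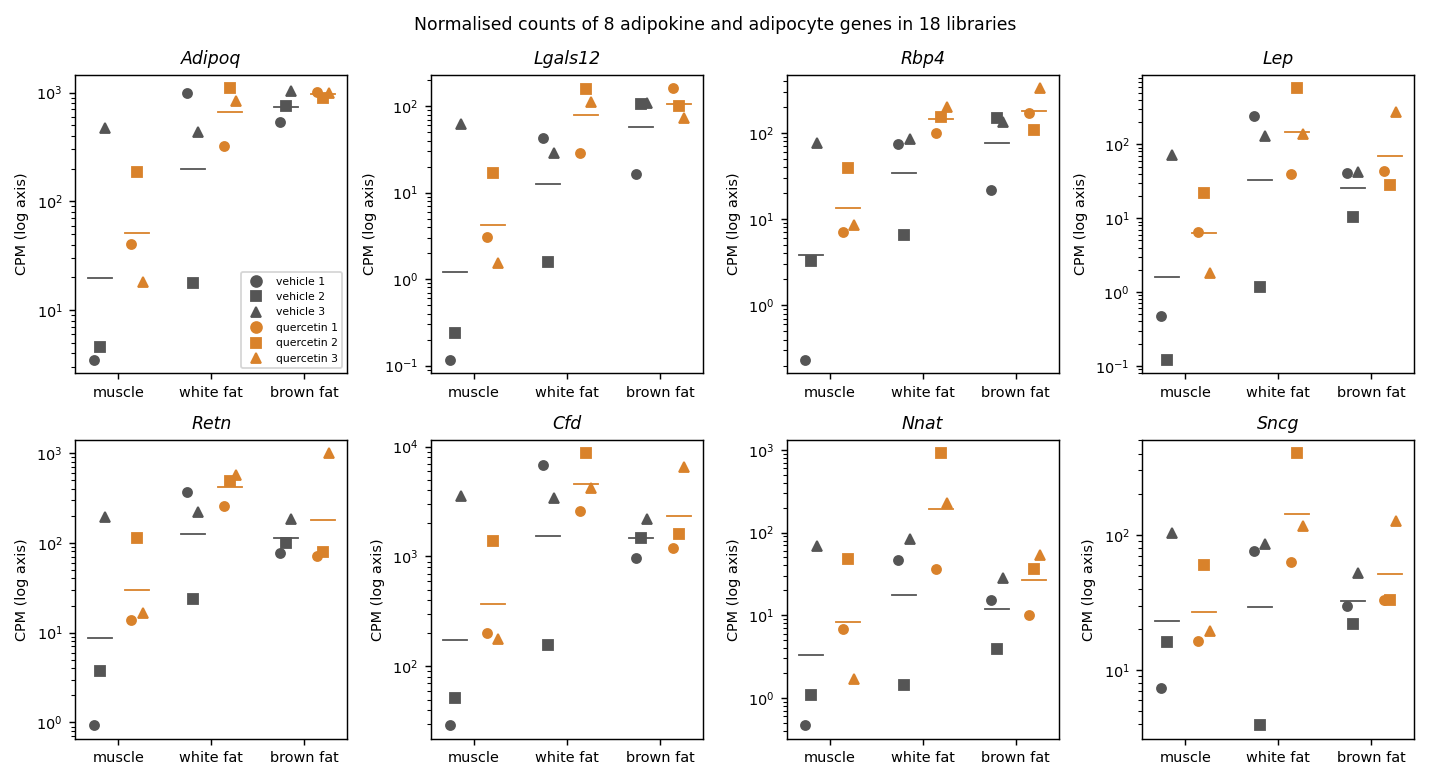
CPM (log axis) of each gene in each of the 18 libraries, by tissue; grey is vehicle, orange is quercetin, the symbol is the replicate number and the bar is the geometric mean of 3 libraries. Adipoq lies between 531 and 1032 CPM in all 6 brown fat libraries, while Lep in white fat spans 1.17 to 577 CPM.

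The design allows the tissues to be compared over both treatments, 6 libraries against 6, in an edgeR quasi-likelihood fit of all 18 libraries with 16388 genes tested. Between brown and white fat none of the 8 genes passed an adjusted p of 0.05, where 40.3% of all genes did. The estimates were higher in brown fat for Adipoq, Rbp4 and Lgals12 (log2 fold changes 0.52, 0.65 and 0.91) and lower for Retn, Cfd, Sncg, Lep and Nnat (-0.48, -0.94, -1.13, -1.56 and -2.51), with standard errors of 0.75 to 1.22 and adjusted p of 0.105 to 0.737. Their median was -0.71, and that of all genes -0.13.

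Without the 4 libraries that stood apart, 5 of the 8 genes were lower in brown than in white fat at the same threshold, where 18% of 16763 genes were lower and 33.5% passed in either direction. Nnat fell by 3.05 on the log2 scale (SE 0.84, edgeR adjusted p 0.0173) and Lep by 2.70 (SE 0.70, edgeR adjusted p 0.0133). Retn, Sncg and Cfd were lower, with log2 differences of -1.91, -1.89 and -1.80 and edgeR adjusted p of 0.00467, 0.0116 and 0.0103. Adipoq (0.23, 95% interval -0.66 to 1.11), Rbp4 (0.11, -1.09 to 1.32) and Lgals12 (0.75, -0.42 to 1.92) did not pass. These 5 calls rest on leaving out more than 1 library, since none of the 8 genes passed in any of the fits that leave out a single one. White fat vehicle 2 was the lowest white fat library for all 8 genes. Brown fat quercetin 3 was the highest brown fat library for these 5 and for Rbp4. Leaving both out therefore lowers the 5 estimates by construction, and the calls describe the libraries kept and are no test of the tissues. In bulk tissue, fewer cells of a type and less RNA per cell cannot be told apart. Over all 12 fat libraries, B and T cell markers summed to 40.6 to 5666 CPM in white and 29.8 to 156 CPM in brown fat, and 8 macrophage markers to 630.2 to 1580.1 CPM and 171 to 709 CPM. These ranges overlap, with white fat vehicle 1 inside the brown fat range for both lists, and the part of these cells in the differences was not tested.

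**Figure D3:**
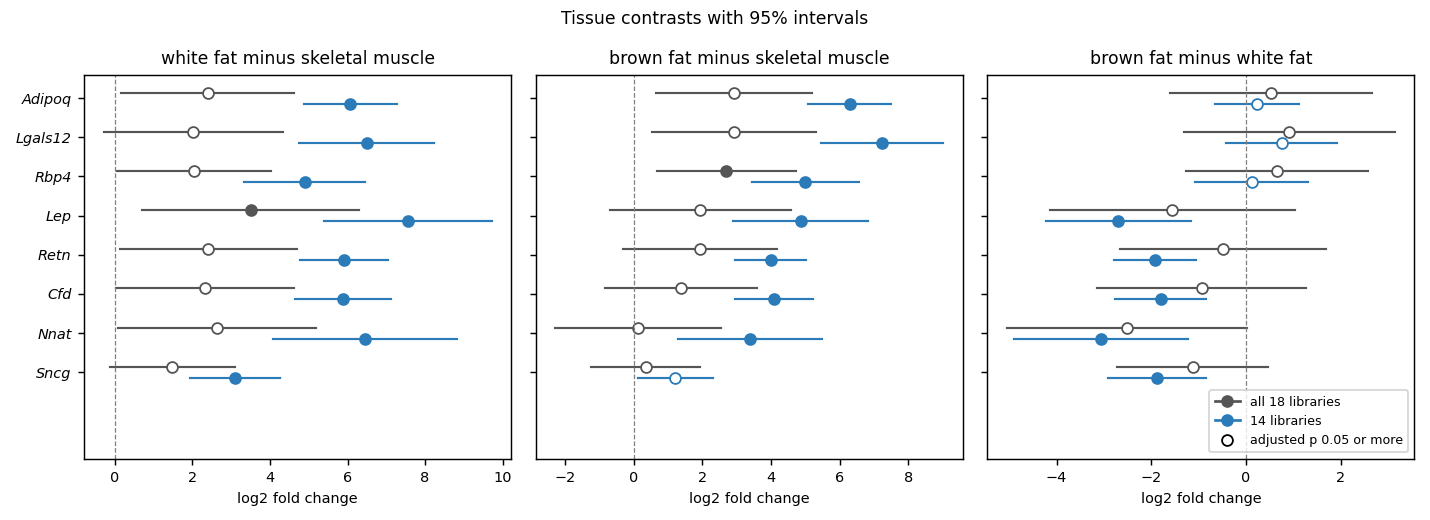
Log2 fold changes between tissues with 95% intervals from edgeR, with all 18 libraries (grey) and with 14 libraries (blue); open points have an adjusted p of 0.05 or more. In brown against white fat, Lep moves from -1.56 to -2.70 and is filled only with 14 libraries, and Adipoq stays near 0 with 0.52 and 0.23.

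Because a ratio of 2 genes within a library does not depend on the scaling of that library, each of the other 7 genes was also set against Adipoq. In white fat the Cfd to Adipoq ratio of counts was 5.08 to 8.86 in all 6 libraries, including vehicle 2, where both genes were low. In brown fat it was 1.18 to 2.14 in 5 libraries and 6.54 in quercetin 3. The ratios of the 2 tissues did not overlap without that library. The mean log2 ratio was 1.75 lower in brown than in white fat (exact permutation test, two-sided, 6 against 6, p = 0.00433), or 0.298 times the white fat ratio.

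Other ratios to Adipoq separated the tissues in the same direction. For Nnat the ratio was 0.00518 to 0.0531 in brown fat and 0.0466 to 0.827 in white fat, a log2 difference of -2.94 (exact permutation p = 0.00433). Neuronatin thus showed the widest gap of the 7, and its 2 ranges touched only through quercetin 3 of brown fat. Sncg was at 0.0294 to 0.127 against 0.0761 to 0.364, a log2 difference of -1.89 (exact permutation p = 0.00433). Retn was at 0.0713 to 0.987 against 0.367 to 1.32, with a log2 difference of -1.91 (exact permutation p = 0.0152). Lep was at 0.0138 to 0.275 against 0.0654 to 0.525, with a log2 difference of -1.94 (exact permutation p = 0.0325). Leaving out any 1 of white fat vehicle 1 or 3, white fat quercetin 2, brown fat vehicle 2 or 3 or brown fat quercetin 2 took the Lep result to an exact permutation p of 0.0519 to 0.0584. For Retn and Lep, quercetin 3 was the brown fat library that reached deepest into the white fat range. Without it the highest brown fat ratios were 0.176 and 0.0766, and the log2 differences -2.42 and -2.43. Leaving out the brown fat library with the highest ratio lowers these differences by construction, so they are a description and give no added support. Rbp4 (log2 difference -0.50, exact permutation p = 0.385) and Lgals12 (0.08, exact permutation p = 0.868) did not pass. These 7 tests were chosen after the counts were seen and are not adjusted for their number.

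**Figure D4:**
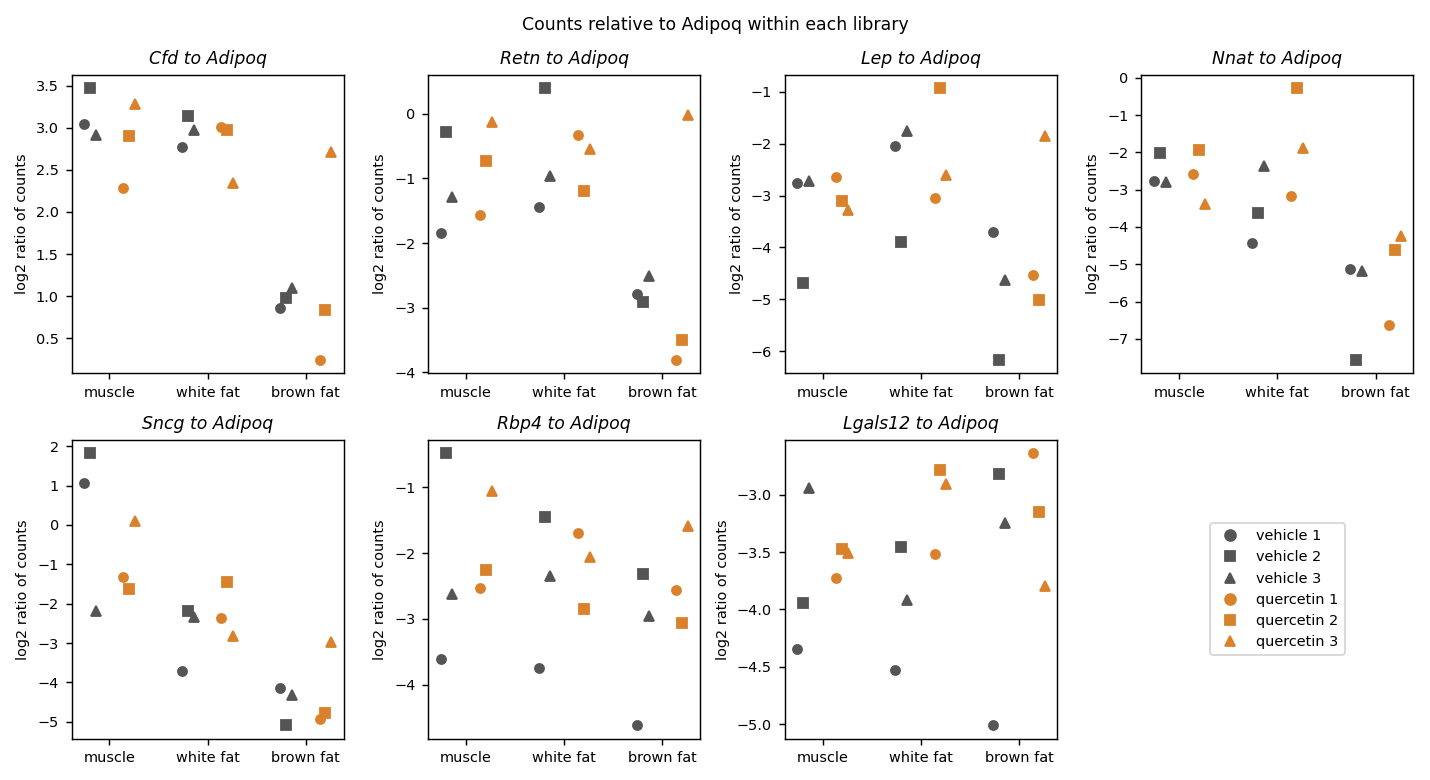
Log2 ratio of each gene's count to the Adipoq count in the same library, by tissue, with grey for vehicle, orange for quercetin and a symbol for each replicate number. Without brown fat quercetin 3 (orange triangle), where the Cfd ratio is 6.54, the brown fat points of Cfd, Retn, Nnat and Sncg lie below all white fat points; for Lep, brown fat vehicle 1 at 0.0766 also lies above white fat vehicle 2 at 0.0654, while Lgals12 has overlapping ranges in both fats.

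In muscle the adipocyte genes were low in most libraries and high in the 2 with the most Plin1. Cfd was at 29.2, 51.2 and 3550.2 CPM with vehicle and at 199.7, 1391 and 177 CPM with quercetin. The Cfd to Adipoq ratio was 4.89 to 11.2 over the 6 muscle libraries, overlapping the range of white fat and above that of the 5 brown fat libraries other than quercetin 3. Against white fat, 1 of the 8 genes passed the test with all libraries, Lep, with a log2 difference of 3.50 (SE 1.32, edgeR adjusted p 0.0371) in white fat over muscle, where 28.6% of genes were higher in white fat. No gene of the 8 passed with muscle vehicle 1 or 2, muscle quercetin 1 or 3, white fat vehicle 1 or 3 or white fat quercetin 2 left out. All 8 passed without muscle vehicle 3, 6 without muscle quercetin 2 and 3 without white fat vehicle 2. Without the 4 libraries all 8 were higher in white fat than in muscle, by 3.10 (Sncg) to 7.56 (Lep) on the log2 scale, where 24.2% of genes were higher. The muscle libraries left out were those with the most Plin1 and the white fat library the one with the least, so this count is a description of the libraries kept and no test of the tissues.

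Against brown fat, Rbp4 passed with all libraries (log2 difference 2.70, SE 0.96, edgeR adjusted p 0.0474, higher in brown fat), where 13.9% of genes were higher. No gene of the 8 passed in 13 of the 18 fits that leave out 1 library, and 6 passed without muscle vehicle 3. Adipoq (2.92) and Lgals12 (2.94) had larger estimates with edgeR adjusted p of 0.0549 and 0.065. Without the 4 libraries, and with the same limit, 7 of the 8 were higher in brown fat than in muscle, where 13.3% of genes were: Lgals12 by 7.24, Adipoq by 6.29, Rbp4 by 5.01, Lep by 4.87, Cfd by 4.08, Retn by 3.99 and Nnat by 3.39. Sncg was the exception, with 1.21 (edgeR adjusted p 0.0982), and stood at 7.34 to 19.5 CPM in the 4 muscle libraries kept.

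Quercetin was compared with vehicle within each tissue, the question the study was built on. No gene of this set passed in any tissue, and neither did any other gene (0% of 14919 genes in white fat, of 13274 in brown fat and of 13562 in muscle by edgeR). At an unadjusted p under 0.05 there were 122, 241 and 406 genes, each a smaller share of the genes tested than 0.05, the share that no effect would give on average. DESeq2 called 7, 2 and 0 genes (0.0473%, 0.0153% and 0% of those it tested), with none of the 8 among them.

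In white fat all 8 estimates were above 0, from 0.54 (Cfd) to 3.13 (Nnat), with a median of 1.23 against -0.01 over all genes. Nnat, the largest, was at 46.4, 1.42 and 84.1 CPM with vehicle and at 36.4, 909 and 225 CPM with quercetin. Its 2 groups overlapped, with the quercetin 1 library under 2 of the vehicle libraries, and the 95% interval was -0.84 to 7.10 (edgeR adjusted p 0.9998). Rbp4 was at 74.4, 6.51 and 85.0 CPM with vehicle and at 100.3, 153 and 199.6 CPM with quercetin. It was the 1 gene of the 8 whose groups did not overlap, where 2.36% of genes had every quercetin library above every vehicle library, and its log2 fold change was 1.41 (95% interval -0.77 to 3.58, edgeR adjusted p 0.9998). The adipocyte markers summed to 708 to 48929 CPM with vehicle and 5339 to 19729 with quercetin, and their part in these estimates was not tested beyond the marker scaling given further on. Without white fat vehicle 2 the log2 fold change of Cfd was -0.02, and without white fat quercetin 2 that of Lep was -0.56.

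In brown fat all 8 estimates were again above 0, from 0.34 (Adipoq) to 1.97 (Lep), with a median of 1.05 against 0.05 over all genes. The estimate for Lep was 1.97 (95% interval -0.30 to 4.23, edgeR adjusted p 0.977) and for Retn, at 76.9, 99.7 and 182 CPM with vehicle and 71.8, 78.9 and 987 CPM with quercetin, 1.75 (-0.74 to 4.23, edgeR adjusted p 0.977). Quercetin 3 alone was above the vehicle libraries for Retn, and 2 of 3 quercetin libraries were above them all for Lep, by a little for quercetin 1. Without quercetin 3 the log2 fold changes were 0.17 for Lep, -0.69 for Retn, -0.17 for Cfd and -0.10 for Sncg. Adipoq had the narrowest interval of the 8, -0.49 to 1.16, with all 3 quercetin libraries inside the range of vehicle.

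In muscle all 8 estimates were below 0, from -0.36 (Nnat) to -1.59 (Lgals12), with a median of -0.82 against -0.03 over all genes. Without muscle vehicle 3 all 8 were above 0, from 1.40 (Sncg) to 5.16 (Lgals12). Nnat was also above 0 without muscle quercetin 1 (0.04) and without muscle quercetin 3 (0.19). Adipocyte markers summed to 1807 to 8301 CPM with vehicle and 1434 to 5308 with quercetin. For none of the 8 genes did a difference of the quercetin effect between 2 tissues pass the test (interaction contrasts, edgeR adjusted p of 0.9999 and above, 0% of 16388 genes past the threshold).

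**Figure D5:**
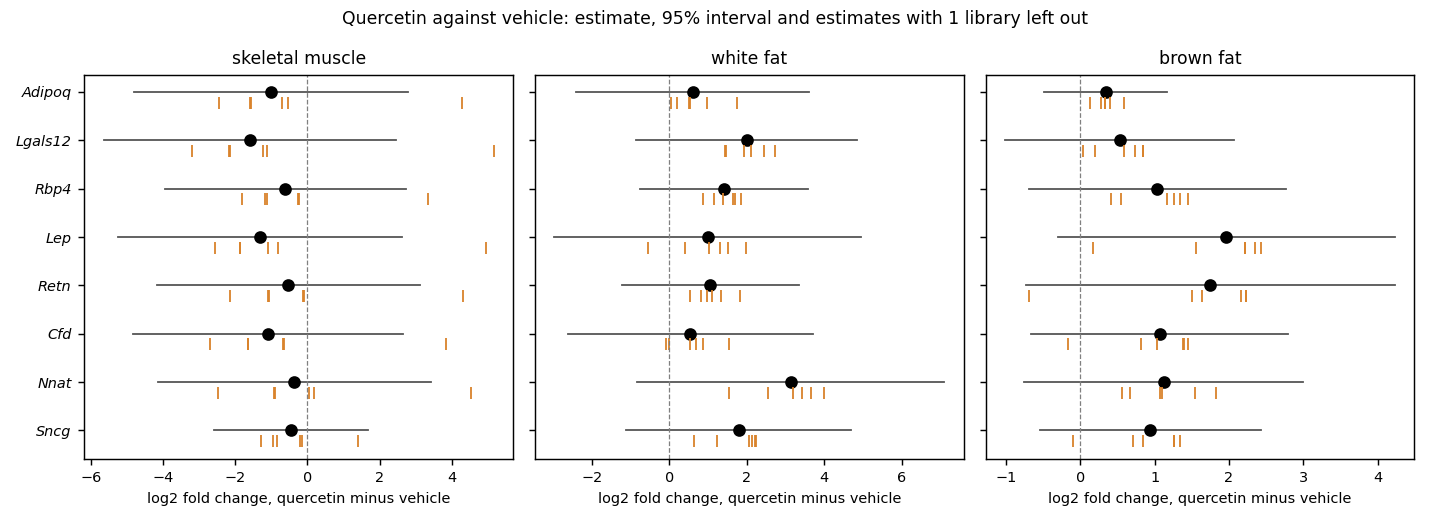
Log2 fold change of quercetin against vehicle in each tissue (black points, edgeR) with 95% intervals, and the estimates with 1 library left out (orange marks). Every interval crosses 0, and in muscle 1 mark for each gene, without vehicle 3, lies at 1.40 to 5.16 while the estimate with all libraries lies below 0.

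Scaling on 12 adipocyte markers in place of TMM sets the 8 genes against adipocyte mRNA. None of the 8 passed for quercetin against vehicle in white fat (estimates 0.07 to 1.57) or brown fat (0.47 to 2.51), where 0% of genes did in either. The median over all genes on this scaling was -2.59 in white fat and 0.13 in brown fat. Standard errors of the 8 genes in white fat were 1.97 to 2.33. Between brown and white fat Nnat (-3.52, SE 1.03, edgeR adjusted p 0.00947) and Sncg (-2.22, SE 0.93, edgeR adjusted p 0.0412) were lower in brown fat, where this scaling put 60.3% of all genes lower with a median of -2.64, so that the direction is that of most genes. With 1 fat library left out, 1 of the 8 passed in 9 of 12 fits, 4 passed without white fat vehicle 2, and 5 without white fat vehicle 1 or brown fat quercetin 3. Without the 4 libraries the genes past the threshold were Lep, Retn, Cfd, Nnat and Sncg, where 31.6% of genes were lower, again as a description of the libraries kept.

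The receptors, signalling partners and assembly factors of these hormones were examined in the same fit of brown against white fat with all 18 libraries, where 40.3% of all genes passed. Without the 4 libraries every gene named here kept its direction and its call except Adipor1, as a description of the libraries kept. In the 18 fits that leave out 1 library, Adipor1 lost its call in 7 and the assembly gene P4hb in 5. Of 11 receptor genes, 4 were lower and 1 higher in brown than in white fat, a share near that of all genes. The count of 5 became 9 without white fat vehicle 1, and 3 without white fat vehicle 3, white fat quercetin 1 or 3, brown fat vehicle 3 or brown fat quercetin 1. Lepr, the leptin receptor, was at 3.94 to 48.8 CPM in white fat and 0.283 to 5.21 CPM in brown fat, with a log2 difference of -4.75 (SE 0.77, edgeR adjusted p 0.000353). Cap1, which binds resistin in human cells, was at 157.6 to 337 CPM against 104 to 160.4 (-1.11), and Stra6, the receptor of the retinol carrier, had a log2 difference of -4.61. Adipor1, the receptor of adiponectin that muscle expresses most, was higher in brown fat by 0.68 (edgeR adjusted p 0.0274; 0.0672 without the 4 libraries).

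Of 14 leptin and adiponectin signalling genes, 3 were higher and 2 lower in brown fat, again near the share of all genes, and the count of 5 became 8 without brown fat quercetin 3. Prkaa2, a catalytic subunit of the kinase AMPK, was at 23.0 to 72.7 CPM in brown and 0.596 to 9.92 CPM in white fat (3.38, edgeR adjusted p 0.000688), and Ppara, a nuclear receptor of fatty acid oxidation, had a log2 difference of 4.68. In muscle Prkaa2 was at 163 to 299 CPM, and the part of the muscle transcripts in brown fat in its level there was not tested. Of 11 other complement genes, not all of the pathway of adipsin, 10 were tested, and 6 were lower in brown fat and none higher, where 3613 of 16388 genes were lower. Leaving out 1 library gave 4 to 7 past the threshold. Among the 6 were Cfp, which codes for properdin, the stabiliser of the alternative convertase (-2.58), and the C1q genes C1qa, C1qb and C1qc (-1.81, -1.68 and -1.82). The part of macrophages, a known source of C1q, was not tested. Of 8 adiponectin assembly genes, 7 were matched and tested: Gstk1, which is known to promote adiponectin multimers, was higher (1.79), and the disulfide isomerase genes Pdia4 and P4hb were lower (-1.62 and -0.98). The share of this list past the threshold was near that of all genes.

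Of 11 C1q/TNF paralogs of adiponectin, 8 were tested, of which C1qtnf9 (2.26) and C1qtnf12 (1.76) were higher and C1qtnf6 (-1.60) was lower in brown fat. That share too was near that of all genes. Among 23 other adipokines, 20 were tested and 3 passed, a smaller share than among all genes; the count was 5 without brown fat quercetin 3 and 7 without white fat vehicle 1. The 3 were higher in brown fat: Nampt (2.35), at 260.7 to 675 CPM in brown and 67.1 to 127 CPM in white fat, Angptl8 (4.01), and Bmp8b, a factor of brown fat at 0 to 8.42 CPM there and 0 to 0.073 CPM in white fat. In the quercetin comparisons no gene of the 7 lists passed in any tissue, and the medians of the lists lay between -0.30 and 0.57.

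Over the 18 libraries, which pool 3 tissues, and with the libraries that stood apart included, the genes closest to each member by Pearson's r of log2 CPM among 16380 others were as follows. Adipoq was nearest to Tmem45b (r 0.987), Ankef1 and Ces1f, Lgals12 to Ces1f (0.981), Tmem45b and Cebpa, and Rbp4 to Ces1f (0.968), Aldh1a7 and Tmem45b. Lep was nearest to Cdsn (0.982), Slc7a10 and Fgf10, and Nnat to Heph (0.923), Slc7a10 and Fgf10. Retn (0.975) and Cfd (0.978) were both nearest to Ifi27l2a, and Sncg to Glb1l2 (0.923).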

How the data were processed

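RNA of 18 libraries was counted per gene; the deposited values are raw counts, per the file headers and values, and HISAT2, HTSeq, DESeq2 and mm10 are named in the submitters' processing notes. No source used here names the annotation release or the strand setting; Nnat lies inside Blcap, on the other strand, without a shared exon. Symbols, positions and exon lengths came from GENCODE M21 (GRCm38). No library was close to a copy of another of the same tissue and treatment, the only pairs compared in this way. Counts were filtered with filterByExpr (minimum count 10, minimum total 15), scaled by TMM and tested two-sided with edgeR 4.0.16 (quasi-likelihood, R 4.3.3) with Benjamini-Hochberg adjustment over all genes and a threshold of 0.05. Quercetin was tested in each tissue alone, tissues and interactions in 1 fit of 18 libraries; fold changes within a tissue therefore use that tissue's own scaling. DESeq2 1.42.0 and limma 3.58.1 (voom with library weights) were alternatives. Fits on flow cell H7H2WDSXX only leave out white fat vehicle 1, white fat quercetin 2 and muscle quercetin 3, which were on H7GKJDSXX. All brown fat libraries were on H7H2WDSXX, so flow cell and tissue are partly confounded in brown against white fat. The white fat libraries left out had the highest adipocyte marker sums, 48929 and 19729 CPM. Ratios to Adipoq added 0.5 to both counts. The fits were checked on simulated counts with known folds and the same spread for all genes. That check does not measure their power in libraries as uneven as these.

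The sample titles number animals 1 to 3 in each tissue and treatment. They do not say whether equal numbers are the same animal in 2 tissues. P-values measure the spread between libraries. Exact permutation of 3 against 3 cannot go below p = 0.1. Members and lists were chosen with earlier results of these data known. Named genes are the 8 members, up to 4 genes past the threshold per list in a comparison (the 2 with the smallest p where none passed), and the 3 genes most correlated with each member; for some lists and comparisons only counts are printed. The brown against white fat result of 1 list is not reported here.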

Additional observations from a re-analysis of the deposited data

How the results depend on the processing

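Over fits that leave out 1 library, genes of the 8 past the threshold ranged from 0 to 8 in white fat against muscle, 0 to 6 in brown fat against muscle and 1 to 5 in brown against white fat on the marker scaling, and stayed at 0 in the other comparisons.

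White fat against muscle (1 gene with all libraries) gave 6 with DESeq2, 4 without the low-count filter, 8 with voom weights, 0 on flow cell H7H2WDSXX only, 0 with vehicle and 0 with quercetin libraries only, and 8 without the 4 libraries. Brown fat against muscle (1) gave in the same order 3, 3, 5, 0, 0, 0 and 7. Brown against white fat (0) gave 1 with DESeq2, 1 with voom weights and 5 without the 4 libraries. On the marker scaling (2) it gave 1 without the filter, 8 with voom weights, 5 on that flow cell, 1 with vehicle, 0 with quercetin libraries only and 5 without the 4 libraries, and quercetin against vehicle in white fat gave 3 with voom weights.

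Counts over all genes were 32 without the filter for quercetin in muscle, 7 and 2 with DESeq2 for quercetin in white and brown fat, and on the marker scaling 13213 (white fat) and 1 (brown fat) with voom weights and 2 without the filter (brown fat). With vehicle and then quercetin libraries only they were 5076 and 4587 for white fat against muscle, 1689 and 1703 for brown fat against muscle, and 3106 and 2997 for brown against white fat; voom weights gave 7451 and 11053 for the last 2. On the marker scaling brown against white fat gave 0 with quercetin libraries only and 5449 without the 4 libraries. Interactions gave 7, 2 and 13 with DESeq2 and, for white fat against muscle and brown against white fat, 3 and 2 with voom weights. Leaving out 1 library gave 7194 to 8843, 3463 to 5097 and 5383 to 7917 genes in the 3 tissue contrasts and 4445 to 13033 for the marker-scaled one, with each highest count without white fat vehicle 1, 0 to 12 and 0 to 1 for marker-scaled quercetin in white and brown fat, and 0 to 1 for quercetin in brown fat.

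Replicate numbers pair samples by number only. Same-numbered vehicle and quercetin libraries had r from -0.699 to 0.266, and 1 of 9 correlated best with its own number among 3 candidates. Libraries of 2 tissues had r from -0.136 to 0.298, over 0.1 in 11 of 18 pairs. Of these, 12 of 18 correlated best with their own number among 3 candidates, a hint from the data and not from the design. Within a tissue the replicate block joins vehicle and quercetin libraries of equal number, which no label pairs. A fit with the replicate block gave 6 of the 8 genes in white fat against muscle, 3 in brown fat against muscle, 0 on the marker scaling of brown against white fat (1504 genes in all), and in muscle turned the quercetin estimates to 2.59 for Adipoq, 2.50 for Lep, 2.48 for Retn, 2.003 for Cfd, 1.98 for Rbp4, 2.40 for Nnat, 0.30 for Sncg and 2.29 for Lgals12. Voom weights turned them to 1.75, 2.34, 1.66, 1.64, 1.08, 1.60, 0.28 and 1.64 in the same order, and in brown fat Retn to -0.62, Cfd to -0.30 and Sncg to -0.072. On flow cell H7H2WDSXX only, Nnat was 0.19 for quercetin in muscle and -0.13 for brown fat against muscle; with vehicle libraries only, brown fat against muscle was -0.57 for Nnat and -0.30 for Sncg.

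Leaving out 1 library gave, for quercetin in muscle, Adipoq -2.47 to 4.29, Lep -2.55 to 4.96, Retn -2.15 to 4.31, Cfd -2.71 to 3.83, Rbp4 -1.81 to 3.35, Nnat -2.48 to 4.55, Sncg -1.28 to 1.40 and Lgals12 -3.19 to 5.16. In white fat it gave Lep -0.56 to 1.97 and Cfd -0.089 to 1.54, and in brown fat Retn -0.69 to 2.22, Cfd -0.17 to 1.45 and Sncg -0.10 to 1.34. Brown fat against muscle gave Nnat -0.24 to 2.57 and Sncg -0.13 to 1.28; Lgals12 brown against white fat was -0.50 to 0.088 on the marker scaling and its ratio to Adipoq -0.13 to 0.39. The cause of these changes was not tested. The ratios of Cfd, Retn, Nnat and Sncg to Adipoq passed under every alternative run, chosen after seeing the data, and that of Lep gave an exact permutation p of 0.11 on flow cell H7H2WDSXX only and of 0.0519 to 0.0584 in 6 of the fits without 1 library. Muscle vehicle libraries held as little as 1 read of Lep and of Lgals12, which limits their fold changes.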
